A study of Solanum tuberosum with 136 samples.

Results

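The genes described here are 150 genes of the potato tuber bud whose transcript level stood above that of control buds after tubers had been returned from ethylene to air, at weeks 17 and 18 of storage, and not at week 15, while ethylene was still present. They were chosen by their measured bud values at those 3 weeks, out of 32878 genes counted. Levels are CPM, the count of a gene divided by the library total and scaled to the same total in every library, and a difference is one of log2(mean CPM + 1) between groups. A gene was taken if this difference from the control was at least 0.5 at both week 17 and week 18 and under 0.3 at week 15. These limits were met by 243 genes, and the 150 with the largest value of the smaller of the 2 later differences were kept. Since weeks 15, 17 and 18 of the bud chose the genes, their values at those weeks are a description and carry no test.

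Ethylene is a gaseous plant hormone that is fed into potato stores to hold back sprouting, and its restraint of the sprout is known to ease once tubers are back in air. The bud in the eye of the tuber holds the meristem from which the sprout grows, and it passes out of dormancy in the course of storage. The flesh is the starch-storing tissue that feeds the sprout.

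RNA was sequenced from the primary bud and the flesh of tubers of the cultivar Russet Burbank. Tubers given 10 ppm ethylene for 15 weeks and then kept in air were sampled at weeks 16, 17 and 18, tubers under 10 ppm ethylene at weeks 3, 6, 9, 12 and 15, and control tubers without ethylene at weeks 0, 3, 6, 9, 12, 15, 16, 17 and 18. Each tissue has 17 groups of 4 libraries, with 16.6 M to 50.9 M counts per library. Nothing in the labels ties the 4 libraries of a group to separate tubers, so the spread behind each p-value is one between libraries and may be technical. Replicate 1 of the week 17 buds in air was left out of the choice of genes and of the bud tests. It had 28.3 M counts but counts in only 19802 genes, the fewest of the 68 bud libraries, against 20104 to 23194 genes in the others. The table of names at hand held none of the deposited IDs (0 matches), so genes are given by ID alone, without a name or role, and the labelled tissues were not checked against marker genes.

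The level of the set was high in the week 17 and week 18 buds in air and low in nearly all other bud libraries. At week 17, 39, 65 and 1 of the 150 genes stayed under 1 CPM in replicates 2, 3 and 4 of the buds in air, and 10 did in replicate 1, which had no part in their choice. In the 4 buds in air of week 18 the number under 1 CPM was 10, 51, 15 and 18. In the other 60 bud libraries between 31 and 87 genes reached 1 CPM. Replicate 3 of week 17, with 85 genes, was the only one of these 8 libraries within that range. In bulk tissue, a higher level per cell and more cells of the type that holds the RNA cannot be told apart.

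**Figure D1:**
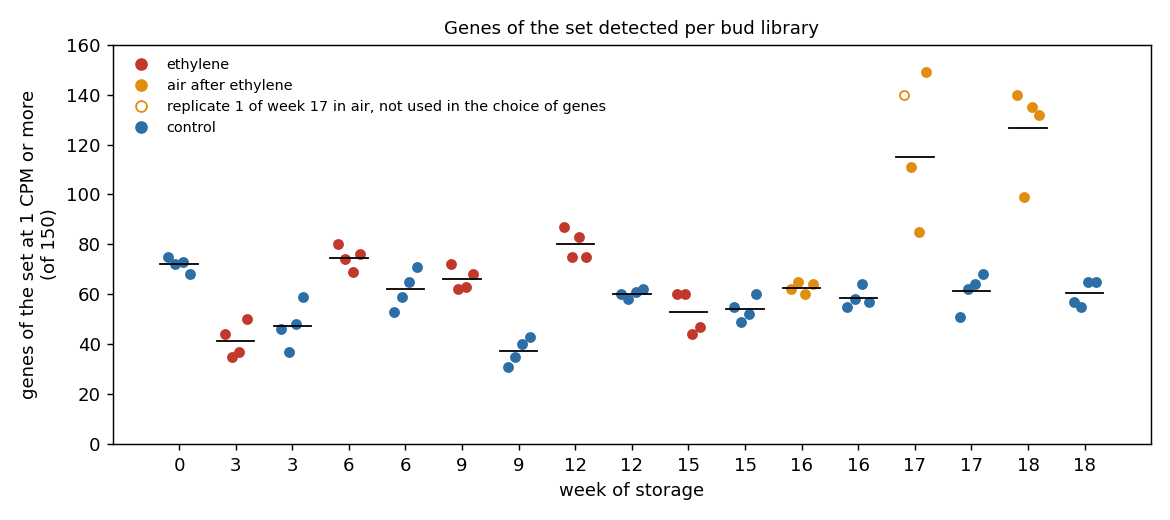
Number of the 150 genes at 1 CPM or more (vertical axis) in each of the 68 bud libraries, by week of storage and treatment (horizontal axis). Each point is a library and each bar the mean of a group, without replicate 1 of week 17 in air (open point). The week 17 and 18 buds in air hold 85 to 149 genes, and all other bud libraries 31 to 87.

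Summed over the 150 genes, the buds in air held 1307, 950 and 4043 CPM at week 17 (replicates 2, 3 and 4) and 3432, 1384, 2137 and 2240 CPM at week 18. The 36 control buds held between 217 and 982 CPM, and the buds under ethylene between 366 and 1377 CPM. Replicate 1 of week 17 held 7519 CPM, more than any other bud library. The median difference from the control was 1.14 on the log2 scale at week 17 (range 0.71 to 4.66) and 1.21 at week 18 (range 0.72 to 4.06), where the medians over all genes with counts were -0.04 and 0. At week 15, under ethylene, the difference from the control had a median of 0 and ran between -1.53 and 0.30. There, 24 genes lay more than 0.3 below the control, and 32 had no counts in either group.

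The number of libraries behind the difference was not the same at the 2 weeks. At week 17, every used library in air lay above every control library for 81 of the 150 genes, against 6.15% of all genes with counts in those libraries. At week 18 this held for 100 genes, against 6.46% of all genes, and at both weeks for 57, against 2.21%. These shares describe the rule and nothing is read from them. At week 17 replicate 3 was the highest of the 3 libraries for 20 genes, replicate 2 for 7 and replicate 4 for all the others, 82% of the set. The highest library held a median of 72.96% of the summed CPM of a gene at week 17 and of 40.96% at week 18. Without replicate 4 of week 17, the median difference was 0.59, 139 genes stayed above the control and 89 of the 150 kept a difference of at least 0.5. The limits were then met by 0.392% of all genes, in place of 0.739%.

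Soltu.DM.04G026490, the gene with the largest smaller difference, had 121.2, 42.6 and 687 CPM in the week 17 buds in air (replicates 2, 3 and 4), against 12.5, 12.5, 14.7 and 25.1 CPM in week 17 controls. At week 18 it had 396, 70.2, 198 and 217 CPM in air, against 16.3, 10.99, 22.3 and 8.60 CPM in controls. The groups did not overlap at either week, and the 3 libraries of week 17 differed among themselves by more than the lowest differed from the controls. At week 15 the same gene had 4.23, 1.15, 0 and 0.67 CPM under ethylene, against 3.57, 7.44, 5.59 and 8.52 CPM in controls, with a single ethylene library inside the control range. Its log2 difference was 4.05 at week 17 and 3.83 at week 18. The week 15 difference, -1.53, was the lowest of the set.

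Soltu.DM.08G027240 had 8.98, 3.41 and 47.2 CPM in the week 17 buds in air, against 0.837, 1.38, 0.648 and 1.03 CPM in controls. At week 18 it had 53.7, 6.79, 26.4 and 22.1 CPM in air, against 1.63, 1.22, 0.866 and 1.41 CPM in controls. All libraries in air were above all controls, and the spread lay almost wholly in the buds in air. Soltu.DM.04G026390 had 170, 120 and 552 CPM at week 17 in air, against 148, 154.8, 170 and 195 CPM in controls, and 612, 248, 344 and 397 CPM at week 18 in air, against 176, 127.4, 196 and 124.4 CPM in controls. For this gene the groups overlapped at week 17, where replicate 4 alone of the 3 lay above all controls, and did not overlap at week 18.

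The limit of the set fell among low values. Soltu.DM.03G035720, just inside it, had 2.69, 1.89 and 3.78 CPM at week 17 in air against 1.51, 1.31, 1.01 and 0 CPM in controls, and its smaller difference, that of week 18, was 0.716. Soltu.DM.02G008110, the last gene taken, had 2.73, 1.83 and 1.27 CPM at week 17 in air against 0.402, 1.03, 0.729 and 1.03 CPM in controls, with a smaller difference of 0.710. Neither gene had overlapping groups at week 17, and at week 18 the groups of Soltu.DM.02G008110 overlapped. The next genes, Soltu.DM.11G026530 and Soltu.DM.08G018140, were left out at 0.708 and 0.695.

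**Figure D2:**
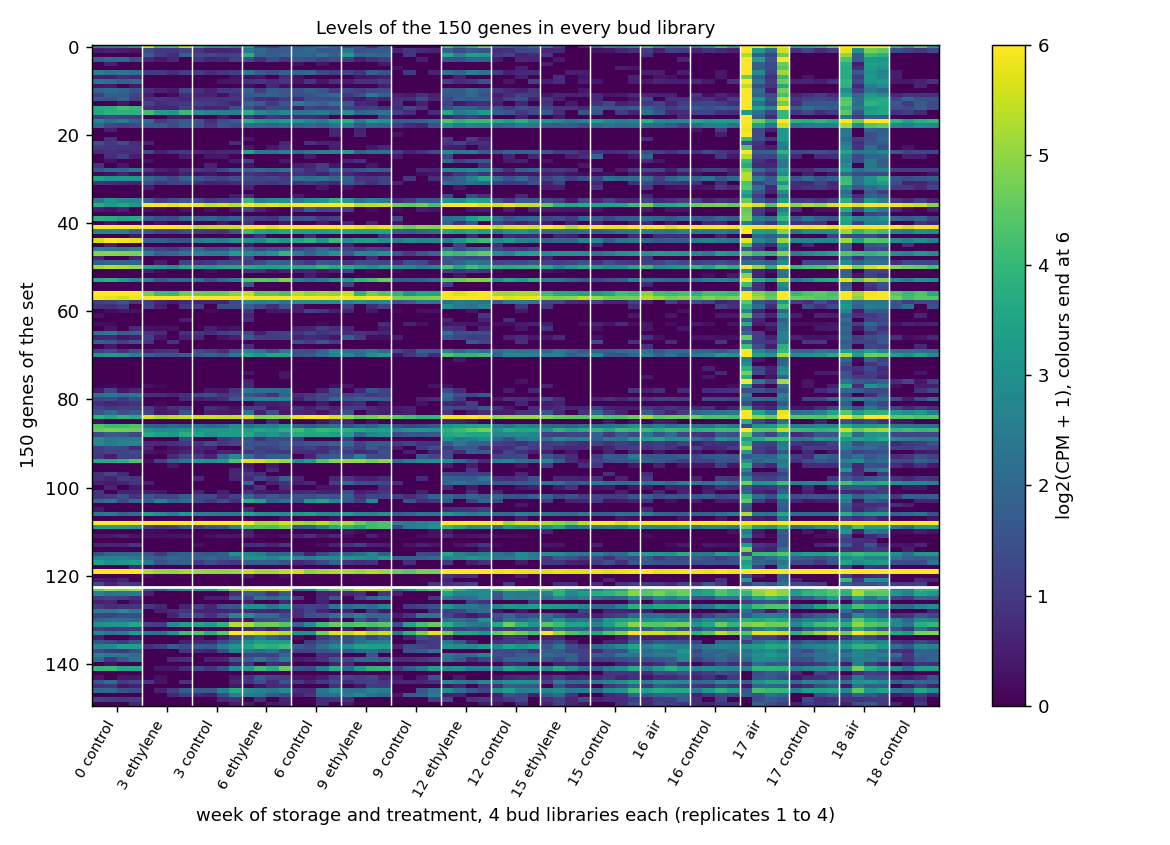
Level of each of the 150 genes (rows) in each of the 68 bud libraries (columns, 4 per group, groups divided by white lines), as log2(CPM + 1), with colours ending at 6. Below the horizontal white line stand the 27 genes with their highest week 17 value in replicate 2 or 3, and above it all those highest in replicate 4. The upper block is bright in replicates 1 and 4 of week 17 in air and in week 18 in air, and the lower block is spread more evenly over weeks.

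The genes were also sorted by the used library in which they were highest at week 17, after their values were seen. These values had chosen the genes, so the sorting and its counts are a description and nothing is read from them. For 70% of the genes the highest used library was replicate 4 at week 17 and replicate 1 at week 18. Of the genes that were highest in replicate 4 at week 17, 36 had no counts in any control bud of weeks 17 and 18, and the highest of the 3 libraries exceeded the lowest by a median of 8.11-fold among the 97 with counts in all 3. The other 27 genes were highest in replicate 2 or 3 at week 17, and 21 of them in replicate 2 at week 18. There the median of the same ratio was 1.40, and 0 genes were without control counts. Soltu.DM.10G027330 belongs to these 27, with 52.8, 52.99 and 45.6 CPM at week 17 in air against 13.3, 20.3, 32.3 and 46.1 CPM in controls. Replicate 4 of the controls lay within the range of the buds in air for this gene.

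Replicate 1 of the week 17 buds in air gave a reading in a library that had not chosen the genes. It lay above all 4 week 17 controls for 84% of the 150 genes, against 28% of all genes, and above the other 3 libraries of its own group for 95 genes, against 29.7% of all genes. The controls and the other 3 libraries of its group had all taken part in the choice of genes, so neither count is free of it. Its median log2 difference from the controls was 2.85 over the set and -0.22 over all genes with counts. It had 267 CPM of Soltu.DM.04G026490, 155.2 CPM of Soltu.DM.08G027240 and 464 CPM of Soltu.DM.04G026390, above every control of week 17 in each case. The count differed with the used library in which a gene was highest at week 17. Replicate 1 exceeded all controls for all but 5 of the genes that were highest in replicate 4, and for 8 of the other 27. For Soltu.DM.10G027330 it had 19.2 CPM, inside the range of the controls.

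Some genes of the set had no counts in control buds. Shares over all genes were not counted, and the controls of weeks 15, 17 and 18 had taken part in the choice of genes. The counts that follow are thus a description and nothing is read from them. No counts were found in the 4 controls of week 17 for 44 genes, and none in the 4 controls of week 18 for 44. All controls of weeks 15 to 18 were without counts for 29 genes, and all 36 control buds for 7. These 7 were Soltu.DM.08G015910, Soltu.DM.06G016360, Soltu.DM.01G005430, Soltu.DM.08G026430, Soltu.DM.05G024860, Soltu.DM.04G024250 and Soltu.DM.09G025310, named after their values were seen. Soltu.DM.08G015910 had 2.05, 0.465 and 6.995 CPM at week 17 in air and 3.26, 0, 2.17 and 1.04 CPM at week 18 in air, and replicate 1 of week 17 had 10.9 CPM. The other 6 were likewise at 0 or low in replicates 2 and 3 of week 17, where none of them passed 1 CPM. A count of 0 covers counting error only, and at these depths does not show that a transcript is absent.

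The level in air was also set beside that of control buds of any age. The genes were chosen for high means at weeks 17 and 18 in air, which favours high ranks for those groups. Shares over all genes were not counted, so the counts that follow are a description and nothing is read from them. The means of both weeks in air lay above the mean of every control week for all but 31 of the 150 genes. In control buds the highest weekly mean stood at week 0 for 56 genes, at week 6 for 27, at week 18 for 17, at week 17 for 16 and at week 12 for 15, with the other 19 spread over weeks 3, 9, 15 and 16. Over all 17 bud groups the highest mean was that of week 17 in air for 65 genes and that of week 18 in air for 52, followed by week 6 under ethylene for 12, week 0 for 10 and week 12 under ethylene for 7. Week 18 exceeded week 17 in air for 72 genes.

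In the first week in air few or no genes of the set were called. At week 16, whose libraries took no part in the choice, 0 of the 150 genes were higher and 0 lower in the buds in air than in control buds by edgeR's quasi-likelihood test at an adjusted p of 0.05, where 1.79% of all tested genes were higher and 1.35% lower. At an unadjusted p under 0.05 there were 22 genes. The share of all tested genes under that limit was not counted, so nothing is read from this number. DESeq2 called 1 gene. A fit of the 8 libraries alone tested 81 of the 150 and called 4 higher and 2 lower, where 2.65% of its genes were higher and 2.27% lower (edgeR). The median difference was 0.04 on the log2(mean CPM + 1) scale over the set and 0 over all genes with counts. The mean in air was above that of the controls for 80 genes of the set and below it for 44. It was above for 53.3% of the set, against 39.951% of all genes with counts. Soltu.DM.04G026490 had 17.8, 7.89, 4.15 and 5.11 CPM at week 16 in air, against 5.42, 9.56, 19.2 and 10.97 CPM in controls, and the groups overlapped. Soltu.DM.08G027240 had 0.998, 0.422, 1.29 and 1.15 CPM at week 16 in air, against 0.473, 0.826, 0.598 and 0.424 CPM in controls, with replicate 2 in air below all of them. All 150 genes passed the filter on low counts, which each of them could do through the buds of weeks 17 and 18 in air alone, so the number tested is no sign of their level at week 16.

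During the ethylene treatment the number of genes called differed between weeks. At week 3, the buds under ethylene had 3 genes higher and 13 lower than the controls (edgeR, adjusted p under 0.05), where 4.64% of all tested genes were higher and 5.22% lower. The balance of higher and lower genes turned in a fit of these 8 libraries alone, which tested 73 of the 150 and called 10 higher and 8 lower, where 9.67% and 7.96% of its genes were called (edgeR). The mean was above that of the controls for 41 genes and below it for 73. It was above for 27.3% of the set, against 38.6% of all genes with counts. Of the 13 lower genes, 11 belonged to the 27 of the 150 that were highest in replicate 2 or 3 of week 17. Those week 17 values had chosen the genes, so nothing is read from this count. The count fell to 4 genes (3 higher, 1 lower) without control replicate 4 of week 3 and to 8 (1 higher, 7 lower) without ethylene replicate 1. Soltu.DM.04G026390 had 407, 239, 211 and 394 CPM under ethylene, against 131.8, 102.6, 121.8 and 110.2 CPM in controls, with no overlap (log2 fold change 1.43 ± 0.33, SE, adjusted p = 0.00264, edgeR). Soltu.DM.06G016070 had 148, 76.2, 69.96 and 110 CPM under ethylene, against 38.3, 41.96, 44.6 and 43.1 CPM in controls, again without overlap (log2 fold change 1.27 ± 0.34, SE, adjusted p = 0.00842, edgeR). This call ended without ethylene replicate 1 (adjusted p = 0.0700) and with replicate 1 of week 17 in the fit (adjusted p = 0.0721).

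The lower genes of week 3 included Soltu.DM.12G006180, with 0.209, 1.28, 2.91 and 4.44 CPM under ethylene against 8.44, 7.66, 8.96 and 19.1 CPM in controls. Its groups did not overlap (log2 fold change -2.36 ± 0.52, SE, adjusted p = 0.00139, edgeR). Soltu.DM.11G012150 had 0, 0.452, 1.05 and 2.41 CPM under ethylene, against 2.38, 2.20, 5.47 and 11.8 CPM in controls, where ethylene replicate 4 reached into the control range (log2 fold change -2.55 ± 0.72, SE, adjusted p = 0.0144, edgeR). That call ended without control replicate 4 (adjusted p = 0.139), ethylene replicate 1 (0.0805) or ethylene replicate 2 (0.0617), and in a fit of the groups compared alone (0.0541).

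At week 6, 19 genes were higher and 3 lower under ethylene, where 8.72% of all tested genes were higher and 9.63% lower (edgeR). The median difference of the set was 0.18 and that of all genes with counts -0.05. Without control replicate 2 of week 6 the count was 12 genes, and without ethylene replicate 4 it was 13. Soltu.DM.08G027970 had 41.9, 49.3, 49.9 and 56.2 CPM under ethylene, against 4.11, 4.99, 15.1 and 23.8 CPM in controls, with no overlap (log2 fold change 2.14 ± 0.47, SE, adjusted p = 0.000636, edgeR). Soltu.DM.08G017900 had 6.07, 8.80, 8.24 and 8.85 CPM under ethylene, against 0, 1.03, 1.76 and 2.85 CPM in controls (log2 fold change 2.61 ± 0.93, SE, adjusted p = 0.0401, edgeR). Although its groups did not overlap, this call ended when any of control replicates 1, 2 and 3 or ethylene replicates 2, 3 and 4 was left out (adjusted p up to 0.122), with DESeq2 (0.0604), and with replicate 1 of week 17 in the fit (0.0683). Soltu.DM.11G013630 was lower under ethylene, with 50.5, 28.7, 29.3 and 29.96 CPM against 53.9, 67.3, 61.1 and 48.2 CPM in controls (log2 fold change -0.63 ± 0.22, SE, adjusted p = 0.0381, edgeR). Ethylene replicate 1 lay inside the control range, and the call ended without any of control replicates 1, 2 and 3 or ethylene replicates 2, 3 and 4 (adjusted p up to 0.122), and with replicate 1 of week 17 in the fit (0.159).

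Week 9 gave the largest count of the ethylene weeks, 51 genes higher and 1 lower, where 7.79% of all tested genes were higher and 9.26% lower (edgeR). A fit of the 2 groups alone tested 79 genes of the set and called 33, all higher. In that fit 5.55% of all tested genes were higher and 3.75% lower (edgeR). The median difference was 0.46 for the set and 0 for all genes with counts. The median of the gene means was 0.73 CPM under ethylene and 0.13 CPM in controls, and this control median was the lowest of the 17 bud groups. Soltu.DM.09G001000 had 6.35, 9.84, 9.26 and 9.52 CPM under ethylene, against 0.525, 1.60, 1.30 and 0.986 CPM in controls (log2 fold change 3.03 ± 0.43, SE, adjusted p = 6.03e-07, edgeR). Soltu.DM.02G028550 had 5.60, 3.30, 6.87 and 9.62 CPM under ethylene, against 0.262, 0.860, 1.74 and 0.645 CPM in controls (log2 fold change 2.91 ± 0.47, SE, adjusted p = 7.25e-06, edgeR). Neither gene had overlapping groups, and both calls held under every alternative run.

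At week 12, 25 genes were higher and 1 lower under ethylene, where 6.77% of all tested genes were higher and 7.2% lower (edgeR). All 25 were among the genes highest in replicate 4 of week 17, which made up 82% of the set. Those week 17 values had chosen the genes, so nothing is read from this. The median difference was 0.35 for the set and 0 for all genes with counts. Soltu.DM.08G011070 had 11.4, 4.70, 9.70 and 8.64 CPM under ethylene, against 0.969, 1.27, 0.463 and 0.604 CPM in controls, with no overlap (log2 fold change 3.37 ± 0.95, SE, adjusted p = 0.0115, edgeR). With DESeq2 its adjusted p was 0.0674. Soltu.DM.08G010990 had 7.10, 4.42, 3.69 and 5.45 CPM under ethylene, against 0.955 CPM in control replicate 3 and 0 in the other 3 controls (log2 fold change 4.40 ± 1.51, SE, adjusted p = 0.0421, edgeR). This call ended without control replicate 1, 2 or 4 or ethylene replicate 1 or 4 (adjusted p up to 0.125), with DESeq2 (0.11), and with replicate 1 of week 17 in the fit (0.0544).

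**Figure D3:**
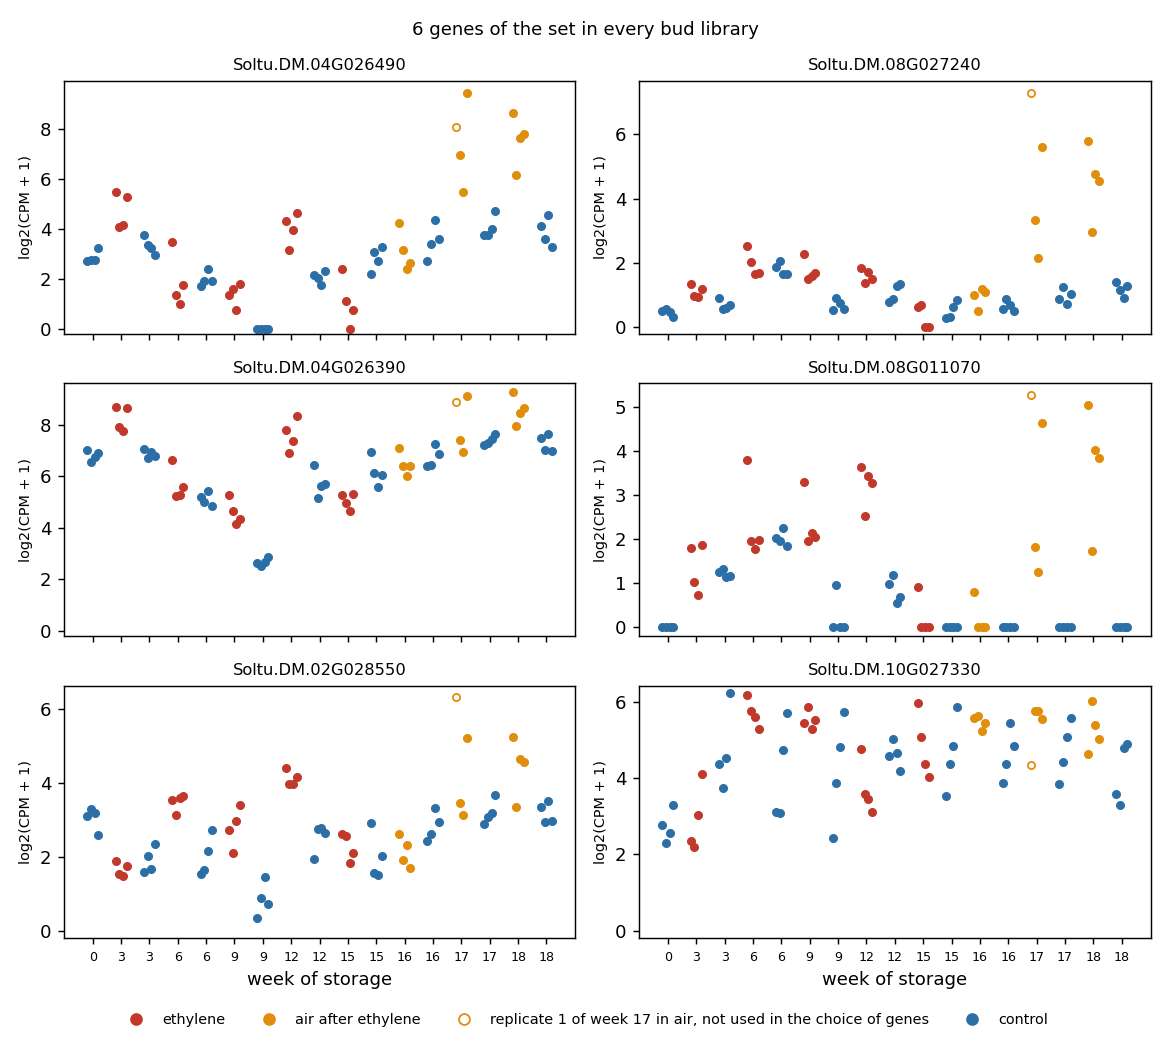
Level of 6 genes of the set in each of the 68 bud libraries, as log2(CPM + 1), by week of storage and treatment. Each point is a library, with ethylene or air left of the control of the same week. All but Soltu.DM.10G027330 have their highest library among the buds in air of weeks 17 and 18, and Soltu.DM.08G011070 is also above its control under ethylene at week 12.

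Averaged over weeks 3, 6, 9 and 12, 45 genes were higher and 2 lower under ethylene, where 11.5% of all tested genes were higher and 13.4% lower (edgeR). At least 1 of the 4 weeks called a gene higher for 63 genes, 42% of the set, against 18.8% of all tested genes. Of these, 34 were called at 1 week, 23 at 2, 6 at 3 and 0 at all 4, where 12.1%, 4.56%, 1.92% and 0.224% of all tested genes were. Called at weeks 6, 9 and 12 alike were Soltu.DM.06G026400, Soltu.DM.06G026420, Soltu.DM.07G016750 and Soltu.DM.02G028550, named after their values were seen. Soltu.DM.07G016750 had 18.7, 20.9, 19.5 and 28.1 CPM under ethylene at week 6, against 4.99, 3.73, 4.94 and 8.71 CPM in controls, and likewise no overlap at weeks 9 and 12. Soltu.DM.04G026490 was higher in the mean of the 4 weeks (adjusted p = 2.13e-05, edgeR), with 43.1, 15.5, 16.5 and 37.7 CPM under ethylene at week 3 against 12.5, 9.24, 8.41 and 6.65 CPM in controls. At week 6 it had 10.03, 1.57, 0.996 and 2.39 CPM under ethylene, against 2.28, 2.78, 4.26 and 2.70 CPM in controls, with ethylene replicate 1 alone above them. At week 12 it had 18.5, 7.83, 14.2 and 23.9 CPM under ethylene, against 3.48, 3.03, 2.37 and 3.91 CPM in controls. The groups stood apart at weeks 3 and 12 and overlapped at week 6. No mean fold is given, since its week 9 controls were without counts. Soltu.DM.08G010990 was higher as well (adjusted p = 0.00102, edgeR), also with week 9 controls at 0.

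The lower call of Soltu.DM.09G025540 in the mean of the 4 weeks (adjusted p = 0.0292, edgeR) rested on 1 library. At week 9 it had no counts under ethylene, and 1.33 CPM in control replicate 1 with 0 in the other 3 controls. At week 12 its values were 3.57, 4.07, 9.26 and 13.3 CPM under ethylene, against 3.59, 1.78, 2.66 and 3.05 CPM in controls, the other way round. Without control replicate 1 of week 9 the adjusted p was 1 and the sign turned. The call ended as well without ethylene replicate 3 or 4 of week 9 (adjusted p = 0.0535 and 0.0519), and in a fit of the groups compared alone (0.083).

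The difference from controls was itself compared between week 16 in air and week 12 under ethylene, as an interaction. It was more positive at week 16 for 2 genes and less positive for 4, where 1.36% and 1.55% of all tested genes were called (edgeR), and without control replicate 3 of week 16 the count was 3 genes. A fit of the 4 groups alone tested only part of the set and called 3 genes more positive and 10 less positive. Of all genes in that fit, 1.74% were more positive and 1.44% less positive (edgeR). The count of less positive genes thus stood further above the share of all genes there than in the fit of all buds. Soltu.DM.02G028550 had 5.17, 2.75, 4.002 and 2.27 CPM at week 16 in air against 4.45, 5.13, 8.94 and 6.76 CPM in controls, and 20.2, 14.8, 14.7 and 16.9 CPM at week 12 under ethylene against 2.85, 5.80, 5.93 and 5.25 CPM in controls. The groups stood apart at week 12 and overlapped at week 16 (log2 interaction -2.54 ± 0.57, SE, adjusted p = 0.00522, edgeR). Soltu.DM.08G010990 was at 0 in all 4 buds in air at week 16, and its call (adjusted p = 0.0223, edgeR) was lost when control replicate 3 of week 16 was left out (adjusted p = 0.0584).

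Set directly against each other, the buds of week 16 in air had 9 genes higher and 42 lower than the buds of week 12 under ethylene, where 18.0% of all tested genes were higher and 19.7% lower (edgeR). The median difference was -0.27 over the set and 0.03 over all genes with counts, and 4 weeks of storage lie between the groups as well as the change to air. Of the 42 lower genes, 41 were among those highest in replicate 4 of week 17, which made up 82% of the set. Of the 9 higher genes 8 belonged to the other 27. The week 17 values behind this split had chosen the genes, so nothing is read from these counts. Soltu.DM.08G011070 had 0.748 CPM in replicate 1 of week 16 in air and 0 in the other 3, against 11.4, 4.70, 9.70 and 8.64 CPM at week 12 under ethylene (log2 fold change -5.67 ± 1.13, SE, adjusted p = 8.42e-05, edgeR). Soltu.DM.08G010990, at 0 in week 16 in air, was at least 210.2-fold lower than at week 12 under ethylene (adjusted p = 0.000556, edgeR), taking 3 counts over the group as the floor, a bound that covers counting error only. At week 17 in air Soltu.DM.08G011070 had 2.54, 1.39 and 23.9 CPM and at week 18 in air 31.9, 2.32, 15.2 and 13.3 CPM, against no counts in the controls of either week. It was thus present under ethylene at week 12 and in air at weeks 17 and 18, and at or near 0 at week 16.

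Among the genes that went the other way, Soltu.DM.02G029430 had 20.9, 26.2, 19.3 and 24.2 CPM at week 16 in air, against 9.92, 5.23, 5.34 and 6.54 CPM at week 12 under ethylene. It did not overlap (log2 fold change 1.64 ± 0.48, SE, adjusted p = 0.00522, edgeR), and with DESeq2 its adjusted p was 0.118. Soltu.DM.07G014900 had 20.5, 19.9, 24.01 and 25.2 CPM at week 16 in air, against 12.7, 6.60, 4.30 and 4.04 CPM at week 12 under ethylene, also without overlap (log2 fold change 1.60 ± 0.57, SE, adjusted p = 0.0216, edgeR). Its call ended without ethylene replicate 3 or 4 of week 12 (adjusted p = 0.0727 and 0.0719).

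Part of the set was lower after storage without ethylene. Week 16 control buds had 14 genes higher and 49 lower than week 0 buds, where 25.6% of all tested genes were higher and 23.8% lower (edgeR). The median difference was -0.12 over the set and 0.11 over all genes with counts. Of the 49 genes that fell, 31 were called higher under ethylene at 1 or more of weeks 3 to 12 (63.3%), against 37.5% of all tested genes that fell. Soltu.DM.06G028410 had 0.273 CPM in control replicate 4 of week 16 and 0 in the other 3, against 5.03, 4.68, 6.08 and 4.54 CPM at week 0 (log2 fold change -6.32 ± 1.58, SE, adjusted p = 0.000667, edgeR). Soltu.DM.10G019450 had 1.36, 1.31, 0.764 and 0.697 CPM at week 16, against 11.1, 13.2, 13.7 and 13.2 CPM at week 0 (log2 fold change -3.85 ± 0.71, SE, adjusted p = 6.61e-06, edgeR). At week 18 the same gene had 21.1, 1.90, 9.60 and 11.4 CPM in buds in air, against 0.757, 1.12, 0.619 and 0 CPM in controls, so that 3 of the 4 buds in air lay near or above the week 0 range.

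The genes that rose with storage were fewer. Soltu.DM.12G025910 had 3.00, 4.13, 8.67 and 6.36 CPM in controls of week 16, against 1.04, 0.629, 0.748 and 0.880 CPM at week 0 (log2 fold change 2.504 ± 0.55, SE, adjusted p = 0.000105, edgeR). Soltu.DM.10G027330 had 13.5, 19.5, 42.3 and 27.6 CPM, against 5.84, 3.91, 4.87 and 8.78 CPM at week 0 (log2 fold change 1.90 ± 0.58, SE, adjusted p = 0.00528, edgeR). Neither pair of groups overlapped.

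**Figure D4:**
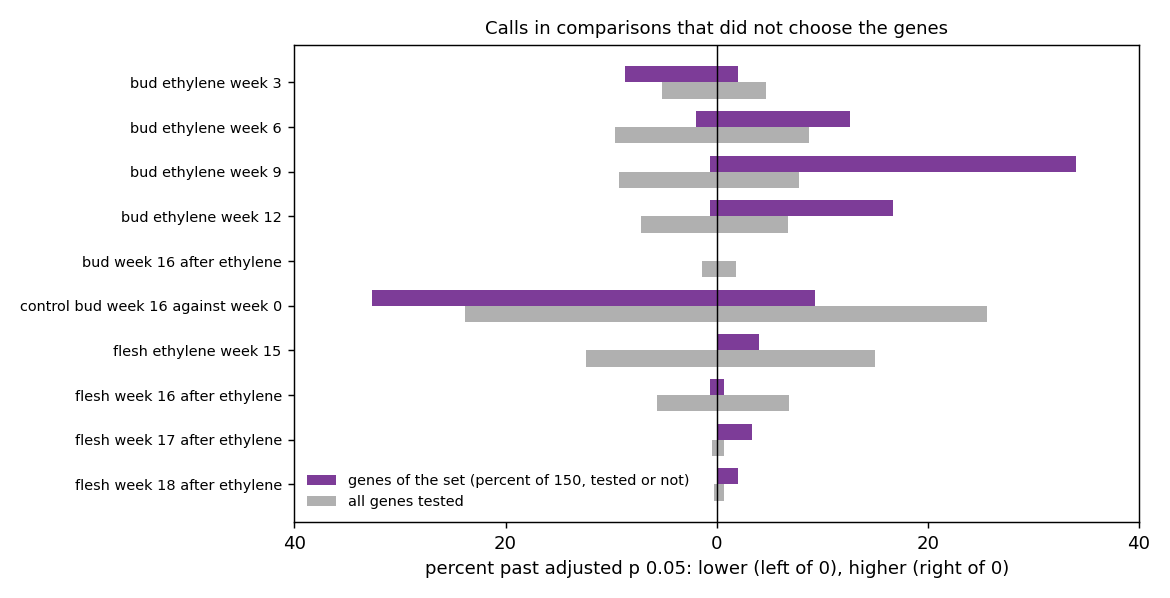
Percent of genes past an adjusted p of 0.05 (edgeR) in 10 comparisons that took no part in the choice of genes, higher to the right of 0 and lower to the left, for the 150 genes and for all genes tested. The bars of the set are percent of 150, although 79 of its genes were not tested in flesh. At week 9 under ethylene 34% of the set was higher against 7.79% of all genes, and at week 16 in air 0% was called.

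At week 0 the mean level in bud was above that in flesh for 80% of the 150 genes and below it for 2, and 28 had no counts in either tissue. Over all genes with counts, it was above for 52.1%. The genes had been chosen on bud libraries, which favours genes with counts in bud. The filter on low counts was passed by 88 of the 150, which a gene could do through bud alone. Of these, 74 were higher in bud and 1 lower, where 32.9% of all tested genes were higher and 25.3% lower (edgeR), and nothing is read from that count. Soltu.DM.08G027280 had 12.3, 8.43, 11.4 and 8.15 CPM in bud, at least 357-fold above flesh, where it had no counts (adjusted p = 1.67e-06, edgeR). Soltu.DM.03G025180 had 10.2, 7.90, 8.46 and 7.92 CPM in bud, at least 305-fold above flesh, where it too had none (adjusted p = 9.68e-07, edgeR). The exception was Soltu.DM.01G048780, with 9.41, 6.87, 7.91 and 9.29 CPM in bud against 11.9, 11.9, 16.6 and 15.7 CPM in flesh (log2 fold change -0.81 ± 0.16, SE, adjusted p = 0.0016, edgeR). That call was not made when all libraries of both tissues were fitted together (adjusted p = 0.422). Over all 68 flesh libraries, 33 of the 150 genes had no counts, and for all but 44 no flesh group reached a mean of 1 CPM. Shares over all genes were not counted here, so nothing is read from these numbers.

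In flesh, replicate 1 of the tubers in air stood apart at weeks 17 and 18. At week 17 the 4 flesh libraries in air held 39, 17, 15 and 16 of the 150 genes at 1 CPM or more, and at week 18 they held 50, 22, 17 and 19. In the other 66 flesh libraries besides both replicates 1, the number was between 11 and 32. Summed over the set, the 2 libraries held 1101 and 736 CPM, and the other flesh libraries between 107.1 and 391 CPM. Replicate 1 of week 17 lay above all 4 flesh controls for 50 of the 150 genes, against 27.3% of all genes, and replicate 1 of week 18 did so for 61, against 25.9% of all genes. The count of week 17 was not far above the share of all genes, and nothing is read from either count. The other replicates did so for 14 to 19 genes at week 17 and 8 to 25 at week 18. For them the share over all genes was not counted, so nothing is read from these numbers. In bud too, replicate 1 held the largest sum at week 17 and at week 18 in air. Whether a bud and a flesh library with the same number share a tuber is not stated in the labels.

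**Figure D5:**
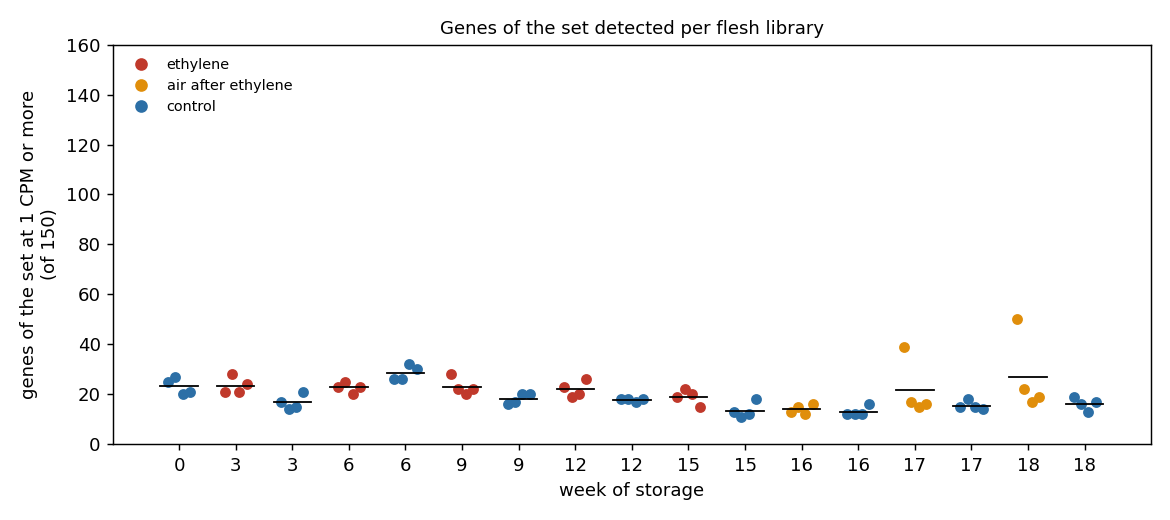
Number of the 150 genes at 1 CPM or more (vertical axis, on the scale of the bud plot) in each of the 68 flesh libraries, by week of storage and treatment (horizontal axis). Each point is a library and each bar the mean of its group. Replicate 1 of weeks 17 and 18 in air holds 39 and 50 genes, and all other flesh libraries hold 11 to 32.

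The flesh tests rested on those libraries. Of the set, 71 genes passed the filter on low counts in flesh and 79 were not tested. At week 17 in air 5 genes were higher and 0 lower than in control flesh, where 0.654% of all tested genes were higher and 0.405% lower (edgeR), and at week 18 in air 3 were higher and 0 lower, where 0.663% and 0.267% were. Without replicate 1 in air the counts were 1 gene at week 17 and 0 at week 18, and without any single control of week 17 the count was 3. Fits of the groups compared alone tested 38 genes of the set at week 17 and 26 at week 18, and called 0 at either week. In those fits 0.11% and 0.00547% of all tested genes were higher, and 0.0681% and 0% lower (edgeR). The 5 genes of week 17 were Soltu.DM.04G026390, Soltu.DM.08G027280, Soltu.DM.04G026490, Soltu.DM.10G019450 and Soltu.DM.05G019730, and the first 3 of these were the genes of week 18.

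Soltu.DM.04G026390 had 227, 9.15, 0.992 and 1.37 CPM in flesh at week 17 in air, against 0.466 CPM in control replicate 1 and 0 in the other 3 controls (log2 fold change 8.91 ± 1.39, SE, adjusted p = 4.68e-05, edgeR). All 4 libraries in air lay above the controls, although replicate 1 held nearly all of the CPM. With the groups compared alone, the adjusted p was 0.0947. At week 18 it had 19.8, 0.926, 0 and 0 CPM in air and no counts in controls, a mean at least 194-fold higher (adjusted p = 0.017, edgeR), and the call ended without replicate 1 in air (adjusted p = 0.558) or without control replicate 1, 2 or 4 (0.0558, 0.0531 and 0.053). Soltu.DM.08G027280 had 100.2, 4.07, 0.725 and 0.379 CPM at week 17 in air and no counts in controls, a mean at least 1441-fold higher (adjusted p = 0.00088, edgeR). Its call ended without replicate 1 in air (adjusted p = 0.0747) and with the groups compared alone (0.161). At week 18 it had 80.5, 2.78, 0 and 0 CPM in air, against 0.576 CPM in control replicate 3 and 0 in the other 3 (adjusted p = 0.00866, edgeR), and without replicate 1 in air the adjusted p was 0.511.

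At week 16 in air 1 gene was higher and 1 lower in flesh, where 6.81% of all tested genes were higher and 5.61% lower (edgeR). Soltu.DM.11G020670 had 11.2, 11.7, 12.5 and 12.3 CPM in air, against 13.7, 18.2, 16.2 and 14.1 CPM in controls, with no overlap (log2 fold change -0.41 ± 0.14, SE, adjusted p = 0.0417, edgeR). The call ended without control replicate 2 or 3 or without replicate 1, 2 or 4 in air (adjusted p up to 0.162), and with the groups compared alone (0.0562). The higher gene was Soltu.DM.10G019450, named for this count, with 0.639 and 0.754 CPM in replicates 1 and 2 in air and 0 in the other 2 and in all controls. Without replicate 1 or 2 in air, 0 genes were called, and without any of the 4 controls or replicate 4 in air 1 gene was.

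Under ethylene at week 15, 6 genes were higher and 0 lower in flesh, where 15.0% of all tested genes were higher and 12.4% lower (edgeR). Fitted alone, these groups tested 27 genes of the set and gave 2 higher and 0 lower. In that fit 10.2% of all tested genes were higher and 10.2% lower (edgeR). Soltu.DM.04G018070 had 10.6, 6.62, 11.4 and 10.9 CPM under ethylene, against 8.40, 4.03, 4.37 and 1.72 CPM in controls, where ethylene replicate 2 lay below control replicate 1 (log2 fold change 1.17 ± 0.25, SE, adjusted p = 0.000253, edgeR). Soltu.DM.06G016070 had 134.6, 76.9, 71.5 and 68.5 CPM under ethylene, against 54.2, 31.7, 37.9 and 42.5 CPM in controls, without overlap (log2 fold change 1.16 ± 0.32, SE, adjusted p = 0.00345, edgeR). The same gene had been higher in bud at week 3 under ethylene.

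The difference of week 16 in air from controls was compared between the tissues for the 83 genes of the set that could be tested. For 0 genes it was more positive in bud and for 1 less positive, where 0.335% and 0.653% of all tested genes were called (edgeR). That gene, Soltu.DM.03G021450, had 2.89, 2.15, 2.40 and 2.33 CPM in bud in air against 4.64, 5.54, 4.32 and 3.88 CPM in control bud, and 1.39, 1.49, 1.19 and 1.32 CPM in flesh in air against 0.992, 0.928, 0.768 and 0.848 CPM in control flesh. The groups did not overlap in either tissue (log2 interaction -1.47 ± 0.31, SE, adjusted p = 0.0362, edgeR). The count was 0 with all libraries of both tissues in 1 fit, and without any of the 4 control buds, replicate 2, 3 or 4 of the buds in air, replicate 3 of the control flesh or replicate 2 of the flesh in air. It was 2 without replicate 4 of the control flesh or of the flesh in air.

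Genes of the set lay on all 12 chromosomes, as the IDs give them. Chromosome 8 held 26 of the 150 (17.3%), where it held 7.45% of all genes with counts. Chromosome 1 held 20 (13.3% against 12.7%), and every other chromosome between 5 and 14. IDs at most 50 numbers apart formed 16 runs with 40 of the genes, 3 of them with 3 or more members. How many runs another set of this size would hold was not counted, so nothing is read from these numbers. No source used here gives the build or the annotation, so positions are known only as the order of the IDs. Neighbouring IDs can be near-identical copies, between which the counting could split or share reads, and the values of such genes are uncertain.

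The longest run held 6 of the 8 genes listed between Soltu.DM.01G040930 and Soltu.DM.01G041000. Soltu.DM.01G040930 had 1.10, 0 and 3.69 CPM at week 17 in air (replicates 2, 3 and 4), 4.75, 0.704, 2.57 and 1.93 CPM at week 18 in air, and no counts in the controls of weeks 15, 17 and 18. Soltu.DM.01G040940 had 0.265, 0 and 2.23 CPM at week 17 in air, 1.07, 0.352, 0.483 and 0.668 CPM at week 18 in air, and no counts in the same controls. The other 4 members had no counts in controls of weeks 17 and 18 either, and all 6 were highest in replicate 4 of the used libraries of week 17. A run on chromosome 8 held 5 of the 9 genes listed between Soltu.DM.08G026430 and Soltu.DM.08G026510. These 5 had 0 counts in replicate 3 of week 17 and 4.61 to 5.98 CPM in replicate 4, and no counts in the controls of weeks 17 and 18.

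The run of 3 adjacent IDs, Soltu.DM.08G017880, Soltu.DM.08G017890 and Soltu.DM.08G017900, differed less between the libraries in air. Soltu.DM.08G017890 had 3.30, 2.97 and 4.39 CPM at week 17 in air, against 0, 1.34, 1.30 and 2.95 CPM in controls, and 3.95, 5.38, 3.83 and 3.45 CPM at week 18 in air, against 1.54, 0.429, 1.55 and 3.24 CPM in controls. Every library in air lay above every control at both weeks, by a small margin over control replicate 4. The transcript table listed 1 transcript with counts for 138 of the 150 genes and several for 12, and for all 150 the transcripts summed to the gene count.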

How the data were processed

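Bud and flesh RNA was extracted with a Qiagen kit for plant tissue, per the labels' protocols. HISAT2, StringTie, SAMtools and Trimmomatic are named in the submitters' processing notes, with no version. The genome build, the annotation and the handling of strand and of reads shared by copies are stated in no source used here. The authors deposited whole-number counts per gene and per transcript, without normalization. A row that names no gene (1.76% to 2.95% of a library) was left out. Numbers in titles were read as weeks.

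CPM were computed from library totals of 16.6 M to 50.9 M (median 31.0 M). The members and tests were chosen with earlier results of these data known. Tests used edgeR 4.0.16 in R 4.3.3 (TMM scaling, quasi-likelihood test, Benjamini-Hochberg adjustment over all genes tested at 0.05) on the genes that its expression filter kept (about 10 counts or more in enough libraries and 15 in all). The fits held 67 bud libraries (24600 genes), 68 flesh libraries (21718 genes), 8 libraries for the tissues at week 0 and 16 for their difference at week 16. DESeq2 1.42.0 was an alternative. Fits without 1 library kept the dispersion trend of the full fit. SE were derived from the F statistic. The edgeR steps were tested on simulated data. Gene lists by name were planned but not tested, since 0 IDs matched the table of names.

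Named genes are those with the largest smaller difference or highest mean, those at the limit, up to 2 higher and 2 lower per comparison (largest log2 fold change, a mean of at least 5 CPM) and 2 of the longest run. Genes named outside the rule are members of a listed count, a run or a flagged result, and only some of them are marked.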

Additional observations from a re-analysis of the deposited data

Results flagged for a closer look

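In groups of 4 libraries, a value was singled out when it lay far from the other 3 for the range of its group. This was tried on 34 groups for the number of genes of the set at 1 CPM or more, and on the groups compared for the named genes. Chance flags about 1 in 20 groups of values without ties, a rate that need not hold where several libraries have equal values. In all, 21 values were singled out, some of them from such groups. By number of genes, these were replicate 1 of the flesh in air at week 17 (39 genes) and at week 18 (50 genes), both high, and in control flesh replicate 3 of week 12 (17 genes, low by 1 gene) and replicate 4 of week 16 (16 genes, high).

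The same flesh libraries in air were high for named genes. Replicate 1 had 100.2 CPM of Soltu.DM.08G027280 and 226.9 CPM of Soltu.DM.04G026390 at week 17, and 80.53 and 19.81 CPM of them at week 18. In control flesh, Soltu.DM.04G026390 had 0.466 CPM in replicate 1 of week 17 and Soltu.DM.08G027280 had 0.576 CPM in replicate 3 of week 18, where the other 3 libraries had none. Under ethylene at week 15, flesh replicate 2 was low for Soltu.DM.04G018070 (6.62 CPM) and replicate 1 high for Soltu.DM.06G016070 (134.6 CPM).

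In buds under ethylene, replicate 1 of week 6 was high for Soltu.DM.11G013630 (50.5 CPM) and Soltu.DM.04G026490 (10.03 CPM), and replicate 1 of week 9 low for Soltu.DM.09G001000 (6.35 CPM). In bud in air at week 16, replicate 1 alone had counts of Soltu.DM.08G011070 (0.748 CPM). Among control buds, Soltu.DM.12G006180 was high in replicate 4 of week 3 (19.1 CPM). Counts in only 1 control bud of a group were found for Soltu.DM.08G010990 (0.401 CPM in replicate 1 of week 6, 0.955 CPM in replicate 3 of week 12), Soltu.DM.09G025540 (1.33 CPM in replicate 1 of week 9) and Soltu.DM.06G028410 (0.273 CPM in replicate 4 of week 16).

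The difference from controls itself differed between week 16 in air and week 12 under ethylene for 6 genes by edgeR's interaction test. It was more positive at week 16 for Soltu.DM.08G024050 (adjusted p = 0.00104, edgeR) and Soltu.DM.11G026550 (adjusted p = 0.0488, edgeR). It was less positive for Soltu.DM.04G026390 (adjusted p = 0.00457, edgeR), Soltu.DM.02G028550 (adjusted p = 0.00522, edgeR), Soltu.DM.08G010990 (adjusted p = 0.0223, edgeR) and Soltu.DM.07G016750 (adjusted p = 0.0399, edgeR). Between bud and flesh at week 16 the difference was less positive in bud for Soltu.DM.03G021450 (adjusted p = 0.0362, edgeR).

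Replicate 1 of the week 17 buds in air, which neither the choice of genes nor the bud tests used, lay above all 4 controls of its week for 84% of the 150 genes, against 28% of all genes with counts. Those controls had taken part in the choice of genes.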

How the results depend on the processing

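Of 274 alternative counts, 225 were within 1.5 times the value reported and 49 were not. The limits for the set, met by 0.739% of all genes, were met by 0.322% with a pseudocount of 5 CPM, 0.459% with a difference of at least 0.7, 1.38% with at least 0.3, 0.292% with a week 15 difference under 0, and 0.392% to 0.861% with 1 library left out. DESeq2 called 1 gene of the set at week 16 in bud, 25 at week 3, 10, 7 and 12 in flesh at week 17, week 18 and under ethylene at week 15, and 8 for the tissue difference at week 16. Fits of only the groups compared called 6 at week 16, 33 at week 9, 13 in the interaction of weeks 16 and 12, 0 in flesh at weeks 16, 17 and 18 and 2 at week 15. The tissue difference gave 0 with all libraries of both tissues in 1 fit and 0 with the replicate block, which kept every other count within 1.5 times. The block gave Soltu.DM.08G010990 an adjusted p of 0.0513 at week 12 (edgeR). Same-numbered libraries of compared groups had correlations between -0.0556 and 0.0913. A library correlated best with its own number in 38 of 96 cases, and in 0 comparisons did every library do so. These values do not settle whether same-numbered samples share more than a number. With 1 library left out the counts lay between 4 and 19 at week 3, 12 and 26 at week 6, and 3 and 8 in the interaction. In flesh they lay between 0 and 2 at week 16, 1 and 7 at week 17, and 0 and 3 at week 18, and between 0 and 2 for the tissue difference.

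Of 552 alternative values of named genes, 499 kept their direction and side of the threshold, 52 lost the call and 1 changed sign. That was Soltu.DM.09G025540 in the mean of weeks 3 to 12, at 0.30 on the log2 scale without control replicate 1 of week 9 and as low as -1.57 without another library. Of 34 tests of named genes, 12 lost the call when 1 library was left out. The causes were not tested. Depth limits what can be said of the many members at 0 to a few CPM, and of the 79 members not tested in flesh.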
